A study of Homo sapiens with 9 samples.

Results

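Laminins and integrins are the secreted basement membrane proteins on which epithelial cells sit and the receptors by which they hold to them. Members were the genes whose symbol names a laminin α, β or γ chain or an integrin α or β subunit, and they were chosen by symbol, not by their values. They numbered 39 of the 20323 genes measured, 12 laminin chains and 27 integrin subunits. ITGB3 stands on 2 rows of the table, and the row with more reads (ENSG00000259207) was kept over ENSG00000259753.

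Poly(A) RNA was sequenced from HKC-8, an established human kidney tubular epithelial line, in 9 libraries. The groups were HKC-8 cells transfected with the Wnt1 plasmid and treated with KP6, a peptide derived from the kidney protein Klotho (Wnt1_KP6, n = 3), cells transfected with the Wnt1 plasmid alone (Wnt1, n = 3), and cells that received the empty vector pcDNA3 (control, n = 3). All 9 libraries thus come from 1 cell line carrying a plasmid. Below, plasmid groups and plasmid libraries are those with the Wnt1 plasmid, while control cells carry the empty vector. The labels give neither the share of cells that took up a plasmid nor the dose and timing of KP6. The study's title places it in Wnt, β-catenin and ATF3 signalling in the passage of acute kidney injury to chronic disease.

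Library totals were 21199078 to 27507623 expected counts, and 28 of the 39 members had enough reads to be tested among 13153 genes. Differences were tested with edgeR's quasi-likelihood test on the counts, and a gene is called where its p, adjusted over all genes tested, is under 0.05. Epithelial keratins were present in all libraries, KRT8 at 312 to 441 CPM (counts scaled to library size) and KRT18 at 301 to 417 CPM, while the adherens junction cadherin CDH1 did not pass 0.141 CPM. Of the 12 markers of proximal tubule, the nephron segment from which HKC-8 was derived, 3 averaged at least 1 CPM in each group (PAX8, GGT1 and CDH6), and the endocytic receptor LRP2 was at or near 0. Replicate 1 of each group differed from replicates 2 and 3 in many genes. Values are therefore given library by library, as replicates 1, 2 and 3 of a group, or as ranges for some members. Every library carries the batch label 1, so no labelled batch separates them. In bulk RNA, fewer cells making a transcript and less of it per cell cannot be told apart.

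A laminin is a trimer of 1 α, 1 β and 1 γ chain, and its name lists them: laminin-511 is α5, β1 and γ1. Chains α3 and β3 belong to the laminin that anchors epithelia and is laid down at wound edges, and laminin-511 and laminin-521 are major laminins of adult kidney basement membranes. Integrins are α/β pairs. Subunits α3, α6 and α7 form laminin receptors, α1 and α2 collagen receptors, and αV and α5 receptors for the RGD sequence in fibronectin and vitronectin. The pairs αVβ6 and αVβ8 also release latent TGF-β.

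The promoters of 2 laminin chains are shown first, because LAMB3 (laminin β3) is the member that passed the test and LAMA3 (laminin α3) is its partner. Each is the 250 bases before a transcription start in RefSeq (GRCh38.p14), printed 5′ to 3′ on the gene's own strand. Capitals mark TGANTCA, the binding motif of AP-1 dimers, the class of factor to which ATF3 belongs.

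LAMB3, upstream start, chr1:209652426-209652675, minus strand: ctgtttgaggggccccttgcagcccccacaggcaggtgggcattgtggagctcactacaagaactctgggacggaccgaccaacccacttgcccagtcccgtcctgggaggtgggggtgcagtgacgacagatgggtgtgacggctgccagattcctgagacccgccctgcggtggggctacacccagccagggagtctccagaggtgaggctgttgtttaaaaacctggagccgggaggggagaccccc

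LAMB3, downstream start, chr1:209651375-209651624, minus strand: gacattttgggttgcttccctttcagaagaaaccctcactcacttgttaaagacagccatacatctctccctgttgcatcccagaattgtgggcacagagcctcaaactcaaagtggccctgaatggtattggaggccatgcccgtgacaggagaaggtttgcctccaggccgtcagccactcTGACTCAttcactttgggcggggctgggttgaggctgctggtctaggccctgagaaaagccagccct

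LAMA3, chr18:23872770-23873019, plus strand: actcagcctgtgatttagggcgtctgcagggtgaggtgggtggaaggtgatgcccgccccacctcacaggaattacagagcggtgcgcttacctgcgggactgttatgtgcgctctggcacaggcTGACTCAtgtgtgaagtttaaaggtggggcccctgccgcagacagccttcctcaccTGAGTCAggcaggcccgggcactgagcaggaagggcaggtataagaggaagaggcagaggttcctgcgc

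The downstream LAMB3 window held 1 copy, whose first base lies at -67 from the start. The LAMA3 window held 2, at -125 and -69, and the upstream LAMB3 window held none, nor did a further LAMB3 window that overlaps it. The LAMA3 window lies inside the gene (chr18:23689443-23956222), before an internal start, and the gene's outermost start was not read. RefSeq gave 34 windows for 27 of the 39 members. The downstream LAMB3 window and the LAMA3 window were the member windows with the motif, 2 of 34. Over all 35116 windows of this length, 2308 (6.57%) held it, so the members' share was not above that of all windows. TGANTCA is its own reverse complement and was read once. On both strands, the CRE motif TGACGTCA was in 0 of the 34 member windows (1.65% of all windows), the TCF motif CTTTGAT in 0 (2.26%), and the TEAD motif GGAATG in 4, those of ITGA10, ITGA5, ITGB1 and LAMA2 (11.9%). None of the 4 motifs contains another. A match describes letters in a window, not binding.

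Levels between genes were compared in FPKM, the authors' values scaled to gene length and library size. Over the 9 libraries ITGB1, the β1 subunit shared by most matrix receptors, had the highest mean (303 FPKM). It was followed by LAMB1 (217 FPKM), ITGA3 (173 FPKM), ITGAV (139 FPKM), LAMC1 (108 FPKM) and LAMA5 (70.8 FPKM). These are the 3 chains of laminin-511 and the subunits of the laminin receptor α3β1 and of αVβ1. ITGB3 (57.9 FPKM), LAMB3 (30.8 FPKM) and ITGA5 (29 FPKM) came next. ITGA6, LAMC3, LAMA3, ITGB5, LAMB2 and ITGB6 lay between 17.9 and 12.7 FPKM. Libraries of neighbours in that order overlapped in FPKM, and differences between genes were not tested. ITGB4, ITGA1, ITGA4, ITGB2, LAMA1 and ITGA2 lay between 4.45 and 2.2 FPKM, and the tested members below them (ITGB8, LAMA2, ITGAE, ITGA7, ITGAX and ITGA2B) had 1.47 FPKM or less.

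**Figure D1:**
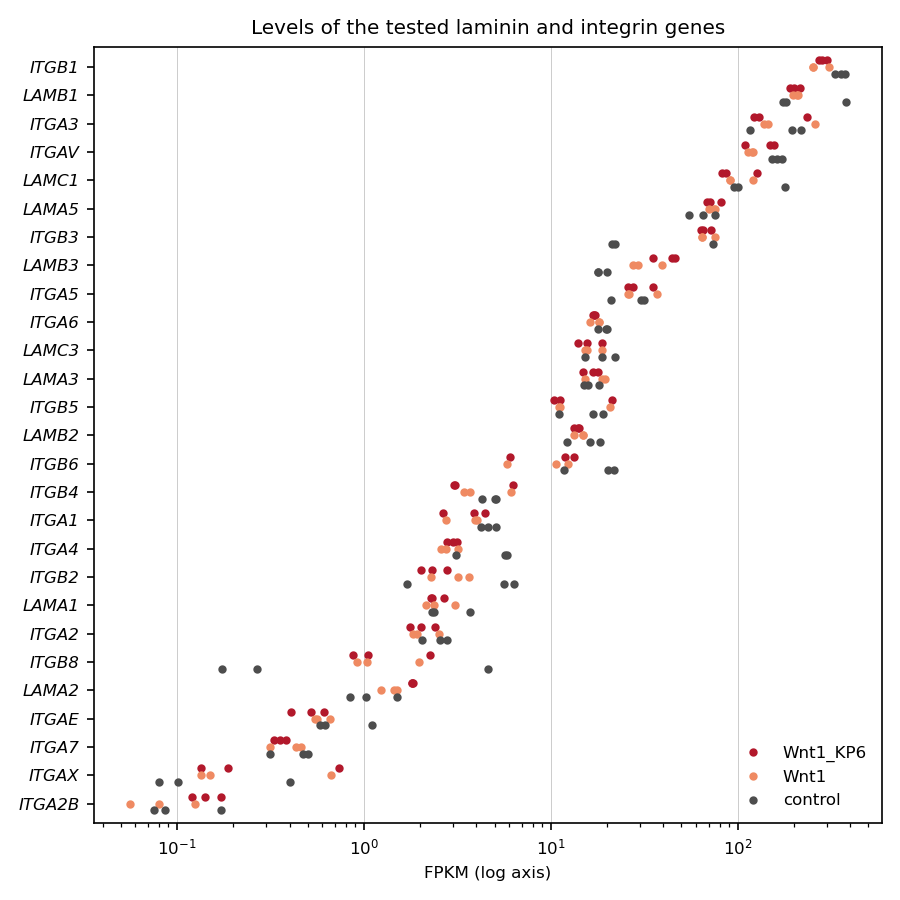
Level of 27 of the 28 tested members in FPKM (log axis) in each library, coloured by group (Wnt1_KP6, Wnt1, control), with genes ordered by their mean over 9 libraries. ITGB1 leads at a mean of 303 FPKM and ITGA2B is lowest at 0.114 FPKM, and the control libraries of ITGB8 and ITGB3 lie far apart.

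Each chain's share of its class, in percent of the summed FPKM, describes the mix of transcripts. LAMA5 made up 77.9%, 77.2% and 76.0% of α chain FPKM in Wnt1_KP6, Wnt1 and control cells, with LAMA3 at 17.6%, 18.7% and 19.4%. LAMB3 made up 16.3% ± 2.65 of β chain FPKM in Wnt1_KP6 cells, 12.7% ± 2.05 in Wnt1 cells and 7.36% ± 2.64 in control cells (SD, n = 3 each). LAMB1 held most of the rest, at 78.3%, 81.6% and 86.3%. The β chain mix thus held more β3 in both plasmid groups than in control, while the shares of LAMA5 and LAMA3 were close in the 3 groups.

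The partner chains β3 and α3 differed from each other. LAMB3 rose 2.49-fold in Wnt1_KP6 against control cells, while the LAMA3 libraries of the 3 groups overlapped. LAMB3 (ENSG00000196878, chr1:209614870-209652466, minus strand, hg38) had 123, 177 and 169.5 CPM in Wnt1_KP6 cells, 139, 101 and 104 CPM in Wnt1 cells and 59.1, 60.8 and 68.4 CPM in control cells. No library of either plasmid group overlapped control, while Wnt1_KP6 and Wnt1 overlapped because replicate 1 of Wnt1_KP6 was lower than replicate 1 of Wnt1. The log2 fold change of Wnt1_KP6 over control was 1.32 ± 0.17 (SE, edgeR adjusted p = 0.0302, higher in 3 of 3 replicates). LAMB3 is 1 of 28 tested members called, or 3.57%, against 0.228% of all tested genes. Leaving out either replicate 2 or replicate 3 of any group ended the call, with adjusted p of 0.0580 to 0.227 and log2 fold changes of 1.22 to 1.47 over all libraries left out in turn.

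For Wnt1 over control the LAMB3 log2 fold change was 0.87 ± 0.17 (edgeR adjusted p = 0.114), and it was positive at each replicate number (1.23, 0.74 and 0.61). DESeq2 called it (adjusted p = 0.000615). For Wnt1_KP6 over Wnt1 the value was 0.45 ± 0.17 (edgeR adjusted p = 1). The replicates gave -0.17, 0.80 and 0.70 there, so replicate 1 went the other way from replicates 2 and 3. With replicates 2 and 3 alone the same contrast gave 0.75 (edgeR adjusted p = 7.02e-06).

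LAMA3 (ENSG00000053747, chr18:23689443-23956222, plus strand) had 115, 139.5 and 140.1 CPM in Wnt1_KP6 cells, 110.4, 147 and 139 CPM in Wnt1 cells and 109, 124 and 124 CPM in control cells. The groups overlapped throughout, and its log2 fold change over control was 0.15 ± 0.13 in both comparisons (edgeR adjusted p = 0.652 for Wnt1_KP6 and 0.732 for Wnt1). The ratio of LAMB3 to LAMA3 in FPKM was 2.36, 2.56 and 2.65 in Wnt1_KP6 cells, 2.58, 1.46 and 1.5 in Wnt1 cells and 1.19, 0.984 and 1.27 in control cells. LAMB3 transcripts thus exceeded those of LAMA3 in every plasmid library, and in control the 2 chains were closer to each other.

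**Figure D2:**
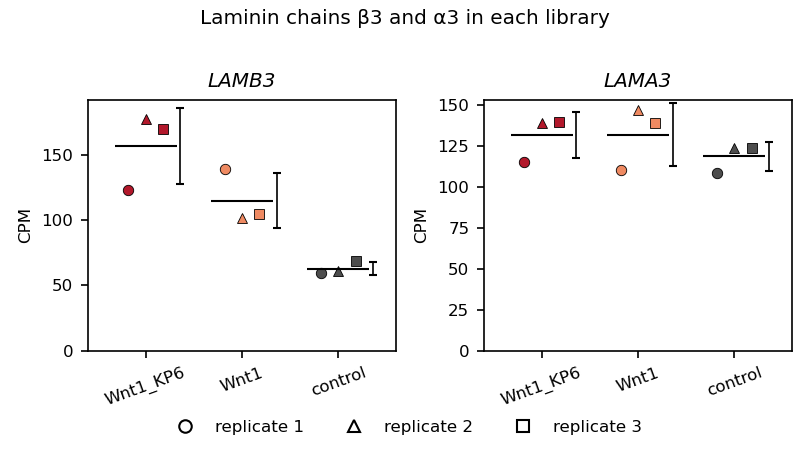
CPM of LAMB3 and LAMA3 in Wnt1_KP6, Wnt1 and control libraries, with symbols for the replicate number, a line at the mean of 3 and a bar of ± SD. LAMB3 lies between 101 and 177 CPM in the plasmid groups and between 59.1 and 68.4 CPM in control, and LAMA3 overlaps in all groups.

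The chains of laminin-511 and laminin-521 did not pass the test in any comparison. LAMA5 (laminin α5, ENSG00000130702, chr20:62307955-62367312, minus strand) had 899, 847 and 825 CPM in Wnt1_KP6 cells, 814, 797 and 854 CPM in Wnt1 cells and 815, 601 and 732 CPM in control cells. Its Wnt1_KP6 libraries all lay above control, by a log2 fold change of 0.26 ± 0.12 (edgeR adjusted p = 0.335). LAMB1 (laminin β1) had 1111, 1053 and 1111 CPM in Wnt1_KP6 cells, 1103, 1038 and 1086 CPM in Wnt1 cells and 1924, 947 and 903 CPM in control cells. LAMC1 (laminin γ1) had 981, 690.0 and 722 CPM in Wnt1_KP6 cells, 935, 722 and 719.7 CPM in Wnt1 cells and 1355, 777 and 755 CPM in control cells. Control replicate 1 was the highest library for both LAMB1 and LAMC1.

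LAMB2, the β2 chain of the glomerular basement membrane, ranged over 74.4 to 85.7 CPM in Wnt1_KP6 cells, 73.4 to 84.9 CPM in Wnt1 cells and 66.5 to 103 CPM in control cells. LAMC3 (laminin γ3) ranged over 109 to 137, 115 to 137 and 108 to 162 CPM in the same order, and LAMA1 (laminin α1) over 23.3 to 25.3, 20.9 to 29 and 22.1 to 34.1 CPM. All 3 overlapped between the groups. For LAMB2 and LAMC3, replicate 1 was higher in both plasmid groups than in control, and replicates 2 and 3 were lower. LAMA2 (laminin α2, the chain of muscle laminin, ENSG00000196569, chr6:128883141-129516569, plus strand) was low, with 3.35, 3.73 and 4.02 CPM in Wnt1_KP6 cells, 2.73, 2.47 and 2.88 CPM in Wnt1 cells and 2.81, 2.09 and 1.85 CPM in control cells. Its Wnt1_KP6 libraries lay above those of both other groups, and the log2 fold changes were 0.71 ± 0.22 over control (edgeR adjusted p = 0.168) and 0.46 ± 0.22 over Wnt1 (adjusted p = 1).

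Set over all members, LAMB3 was the exception. In Wnt1_KP6 against control 1 of 28 was called, with a median log2 fold change of -0.13 over the members against -0.01 over all genes tested. DESeq2 called 2 members there (LAMB3 and ITGA4, 7.14%, against 5.13% of all genes), and the fit with a replicate block called 2 (LAMB3 and ITGB6, 7.14%, against 1.13%). At an unadjusted p under 0.05 there were 5 of 28 (17.9%, against 15.8% of all genes), a share near the background. The libraries did not overlap for 3 members that were higher (LAMA2, LAMA5 and LAMB3, against 8.74% of all genes) and 2 that were lower (ITGA4 and ITGB1, against 7.8%).

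In Wnt1 against control edgeR called 0 of 28 members (0.122% of all genes) and 5 had an unadjusted p under 0.05 (17.9%, against 11.2% of all genes). DESeq2 called 2, LAMB3 higher and ITGB1 lower (7.14%, against 2.32%), and the replicate block called 1, ITGB6 (3.57%, against 0.722%). The libraries did not overlap for 1 higher member, LAMB3 (8.67% of all genes), and for 5 lower ones, ITGA1, ITGA4, ITGAV, ITGB1 and ITGB6 (17.9%, against 7.87%). These 5 are integrin subunits and include no laminin chain. The median over the members was -0.13, with 20 of 28 below 0, and that of all genes was within 0.01 of 0.

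In Wnt1_KP6 against Wnt1 edgeR called 0 of 28 members and 0.0% of all genes, and 1 member, LAMB3, had an unadjusted p under 0.05 (3.57%, against 2.76%). DESeq2 called 0 members (0.144% of all genes), and the replicate block called 0 (0.0% of all genes). LAMA2 and ITGA2B were higher without overlap (7.14%, against 2.87% of all genes), and 0 members were lower without overlap (2.94% of all genes). The median was 0.02, with 20 of 28 above 0. The comparisons with control share the control libraries, and both comparisons with Wnt1 share the Wnt1 libraries, so their values are not independent of each other.

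**Figure D3:**
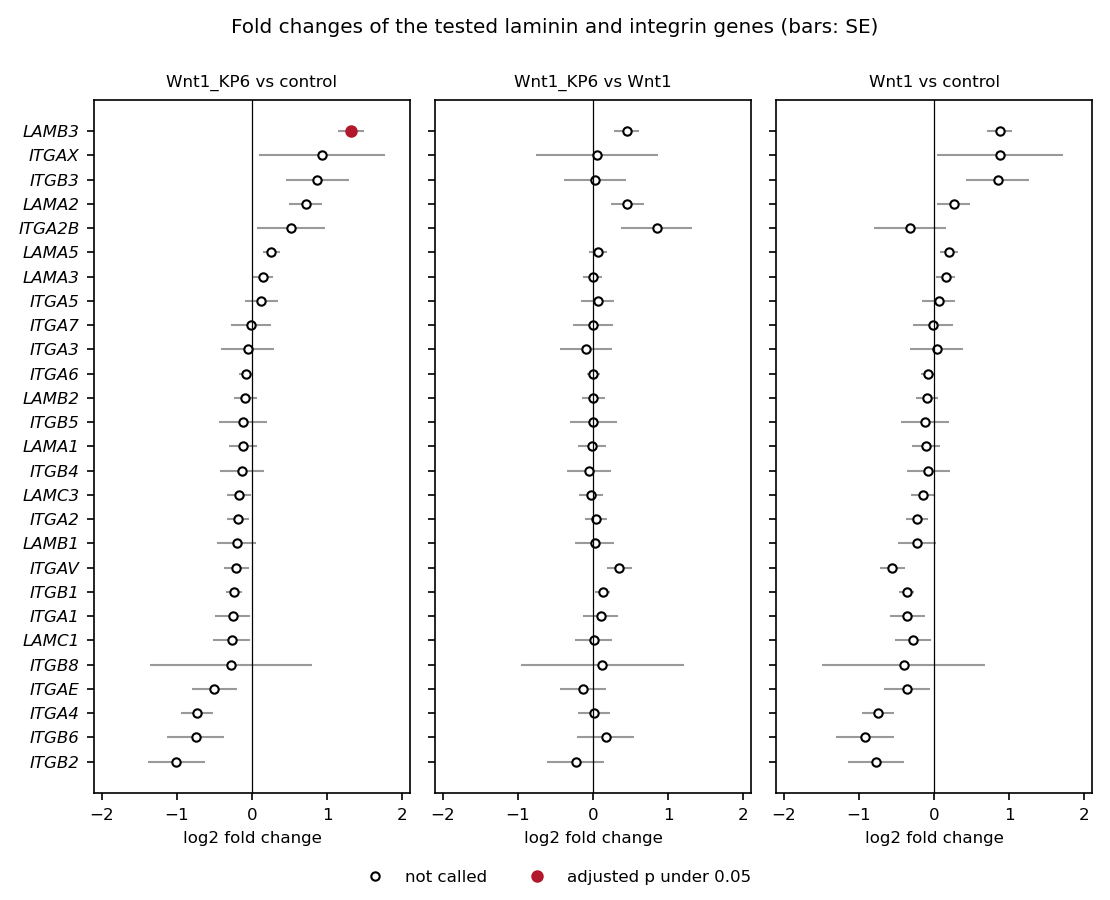
Log2 fold change of 27 of the 28 tested members with bars of ± SE, in panels for Wnt1_KP6 vs control, Wnt1_KP6 vs Wnt1 and Wnt1 vs control. LAMB3 stands at 1.32, 0.45 and 0.87 in these panels and is called in Wnt1_KP6 vs control, while the bars of ITGB8 and ITGAX are the longest.

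Among integrin subunits, ITGB1 and ITGA4 had lower values in every library of both plasmid groups than in control, and ITGAV and ITGB6 did so in the Wnt1 libraries but overlapped control in Wnt1_KP6. None of the 4 passed the main test. ITGB1 (β1, ENSG00000150093, chr10:32900319-33005792, minus strand) had 1107, 1081 and 1115 CPM in Wnt1_KP6 cells, 1126, 952 and 946 CPM in Wnt1 cells and 1272, 1380.4 and 1242 CPM in control cells. Every plasmid library lay below every control library. The log2 fold change was -0.24 ± 0.10 for Wnt1_KP6 over control (edgeR adjusted p = 0.300) and -0.37 ± 0.10 for Wnt1 over control (edgeR adjusted p = 0.237, DESeq2 adjusted p = 0.0148).

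ITGAV (αV, which pairs with β1, β3, β5, β6 and β8, ENSG00000138448, chr2:186590065-186680901, plus strand) had 653, 934 and 1067 CPM in Wnt1_KP6 cells, 686, 726 and 674 CPM in Wnt1 cells and 1029, 1114 and 923 CPM in control cells. The Wnt1 libraries all lay below control (-0.56 ± 0.17, edgeR adjusted p = 0.272), and Wnt1_KP6 overlapped both. Over all libraries, Wnt1_KP6 over Wnt1 was 0.35 ± 0.17 and was not called by edgeR, with -0.07, 0.36 and 0.66 at replicates 1, 2 and 3. Wnt1_KP6 over control was -0.21 ± 0.17 (edgeR adjusted p = 0.613). With replicates 2 and 3 alone, Wnt1_KP6 over Wnt1 was 0.51 (edgeR adjusted p = 0.00106) and Wnt1_KP6 over control was -0.03. Replicate 1 of Wnt1_KP6 was close to replicate 1 of Wnt1.

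ITGA4 (α4, a receptor for VCAM1 and fibronectin best known on leukocytes, ENSG00000115232, chr2:181457202-181536187, plus strand) had 14.3, 14.2 and 15.9 CPM in Wnt1_KP6 cells, 14.2, 15.5 and 14.4 CPM in Wnt1 cells and 16.0, 31.6 and 26.5 CPM in control cells. The plasmid groups lay below control in every library, closely so for control replicate 1. The log2 fold changes over control were -0.73 ± 0.21 for Wnt1_KP6 (edgeR adjusted p = 0.157, DESeq2 adjusted p = 0.0383) and -0.75 ± 0.21 for Wnt1 (edgeR adjusted p = 0.247).

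ITGB6 (β6, the epithelial partner of αV, ENSG00000115221, chr2:160099666-160200313, minus strand) had 23.5, 50.5 and 55.5 CPM in Wnt1_KP6 cells, 23.2, 43.8 and 48.2 CPM in Wnt1 cells and 50.0, 88.4 and 79.0 CPM in control cells. Replicate 1 was the lowest in each group, and within each replicate number control was the highest. Without a block the log2 fold changes over control were -0.75 ± 0.38 for Wnt1_KP6 (edgeR adjusted p = 0.389) and -0.92 ± 0.38 for Wnt1 (adjusted p = 0.416). With the replicate block both were called, at -0.80 (adjusted p = 0.0287) and -0.95 (adjusted p = 0.0187). A same-strand gene covers 20.6% of the ITGB6 exon bases.

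**Figure D4:**
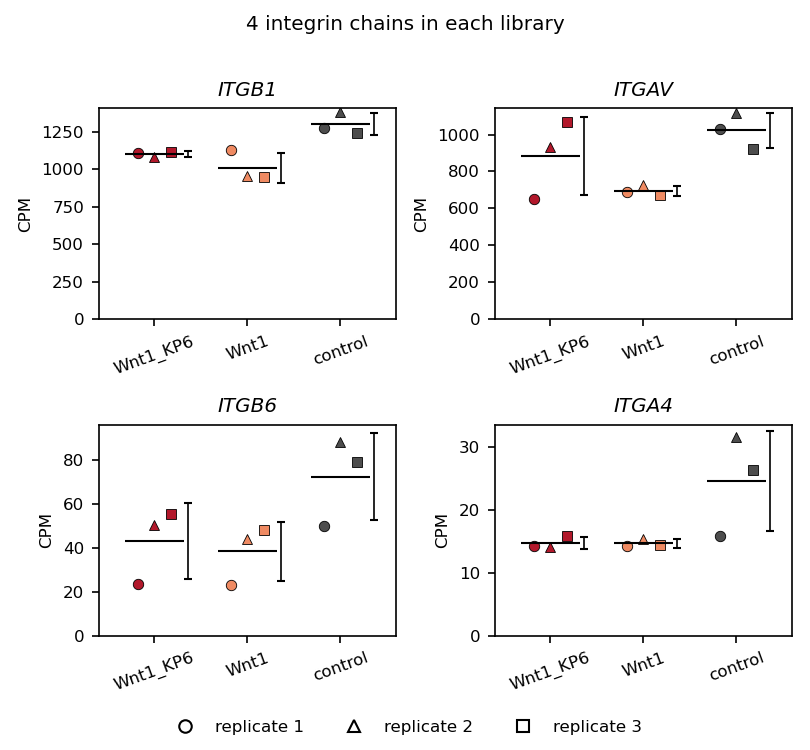
CPM of ITGB1, ITGAV, ITGB6 and ITGA4 in Wnt1_KP6, Wnt1 and control libraries, with symbols for the replicate number, a line at the mean of 3 and a bar of ± SD. ITGB1 is lower in every plasmid library (946 to 1126 CPM) than in control (1242 to 1380.4 CPM), and ITGB6 is lowest at replicate 1 of each group.

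The laminin receptor subunits overlapped between groups. ITGA6 (α6) was steady, at 94.1 to 103 CPM in Wnt1_KP6 cells, 90.0 to 104 CPM in Wnt1 cells and 101 to 109.9 CPM in control cells. ITGA7 (α7) had 1.19 to 1.71 CPM over the 9 libraries. ITGB4 (β4), the partner of α6 in hemidesmosomes, had 33.7, 18.1 and 18.2 CPM in Wnt1_KP6 cells, 33.6, 18.6 and 20.6 CPM in Wnt1 cells and 26.7, 22.1 and 28 CPM in control cells. It was highest at replicate 1 in both plasmid groups.

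Of the collagen receptor subunits, ITGA1 (α1) had 21.8, 35.2 and 39.7 CPM in Wnt1_KP6 cells, 22.6, 34.4 and 33.4 CPM in Wnt1 cells and 34.7, 42.2 and 38.5 CPM in control cells. ITGA2 (α2) ranged over 14.4 to 17.7, 14.4 to 18.2 and 15.6 to 20.5 CPM in the same order. The fibronectin receptor subunit ITGA5 (α5) ranged over 111 to 145 CPM in Wnt1_KP6 cells, 100.2 to 154 CPM in Wnt1 cells and 83.0 to 133 CPM in control cells. ITGB5 (β5), an αV partner, had 77.5, 46.0 and 42.4 CPM in Wnt1_KP6 cells, 78.2, 44.6 and 42.5 CPM in Wnt1 cells and 43.1, 66.5 and 70.2 CPM in control cells. Apart from ITGA1 in Wnt1 cells, which lay just below control, none of these separated from control. For ITGA5 and ITGB5, replicate 1 was higher in both plasmid groups than in control, and replicates 2 and 3 were lower.

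Subunits known mainly from blood cells were low. ITGB2 (β2, the common leukocyte subunit, ENSG00000160255, chr21:44885953-44931989, minus strand) had 6.53, 4.43 and 5.32 CPM in Wnt1_KP6 cells, 7.77, 5.13 and 6.21 CPM in Wnt1 cells and 4.75, 13.2 and 14.9 CPM in control cells. Control replicate 1 lay among the plasmid libraries, and the log2 fold change of Wnt1_KP6 over control was -1.01 ± 0.38 (edgeR adjusted p = 0.245). ITGAX (αX) had 1.95, 0.564 and 0.447 CPM in Wnt1_KP6 cells, 1.99, 0.475 and 0.375 CPM in Wnt1 cells and 0.949, 0.366 and 0.231 CPM in control cells, with replicate 1 the highest in each group. ITGAE (αE) had 1.65 to 2.46, 2.02 to 2.50 and 2.11 to 4.10 CPM in the same order, and its log2 fold change for Wnt1_KP6 over control was -0.50 ± 0.30 (adjusted p = 0.478). The leukocyte genes PTPRC and CD3E were at 0 in all 9 libraries. Of 8 leukocyte markers 1 (CD68) averaged at least 1 CPM, and the summed level of the 8 was 26.5 to 50.1 CPM in Wnt1_KP6 cells, 27.8 to 51.7 CPM in Wnt1 cells and 38.1 to 51.2 CPM in control cells.

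ITGA2B (αIIb, the platelet fibrinogen receptor subunit, ENSG00000005961, chr17:44372180-44389505) had 0.478, 0.391 and 0.447 CPM in Wnt1_KP6 cells, 0.319, 0.190 and 0.209 CPM in Wnt1 cells and 0.457, 0.220 and 0.231 CPM in control cells. The log2 fold change of Wnt1_KP6 over Wnt1 was 0.85 ± 0.47 (edgeR adjusted p = 1). These levels lie close to the limit a count of 0 allows, 0.109 to 0.142 CPM in a library, which covers counting error only. The platelet genes GP9 and PF4 were at 0 in all libraries, and the 5 platelet markers summed to at most 1.35 CPM.

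Replicate 1 of control differed most for members of several classes. ITGB3 (β3, the αV partner of the vitronectin receptor, ENSG00000259207, chr17:47253846-47311816, plus strand) had 407, 384 and 394 CPM in Wnt1_KP6 cells, 425, 367 and 371 CPM in Wnt1 cells and 402, 124 and 122 CPM in control cells. Control replicate 1 thus sat with the plasmid libraries, at 3.27 times the mean of control replicates 2 and 3. The log2 fold change over control was 0.87 ± 0.42 for Wnt1_KP6 (edgeR adjusted p = 0.360) and 0.84 ± 0.42 for Wnt1 (adjusted p = 0.496). With replicates 2 and 3 alone it was 1.66 (adjusted p = 4.53e-11) and 1.59 (adjusted p = 2.29e-10). A same-strand gene covers 51.6% of the ITGB3 exon bases, so its count depends on how shared reads were split.

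ITGB8 (β8, the other TGF-β-releasing partner of αV) had 16.9, 7.99 and 9.96 CPM in Wnt1_KP6 cells, 16.5, 7.12 and 8.26 CPM in Wnt1 cells and 39.1, 1.54 and 1.54 CPM in control cells. Control replicate 1 was 25.4 times the mean of control replicates 2 and 3, and the plasmid groups lay between them. With replicates 2 and 3 alone ITGB8 was higher over control, by 2.54 in Wnt1_KP6 (edgeR adjusted p = 1.66e-07) and 2.32 in Wnt1 (adjusted p = 8.81e-07), and over all 3 replicates the values were -0.28 ± 1.08 and -0.40 ± 1.08 (adjusted p = 0.942 and 0.936). ITGA3 (α3) had 1098, 647 and 608 CPM in Wnt1_KP6 cells, 1193, 652 and 663 CPM in Wnt1 cells and 516, 906 and 1031 CPM in control cells. Replicate 1 was the highest for ITGA3 in both plasmid groups and the lowest in control.

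**Figure D5:**
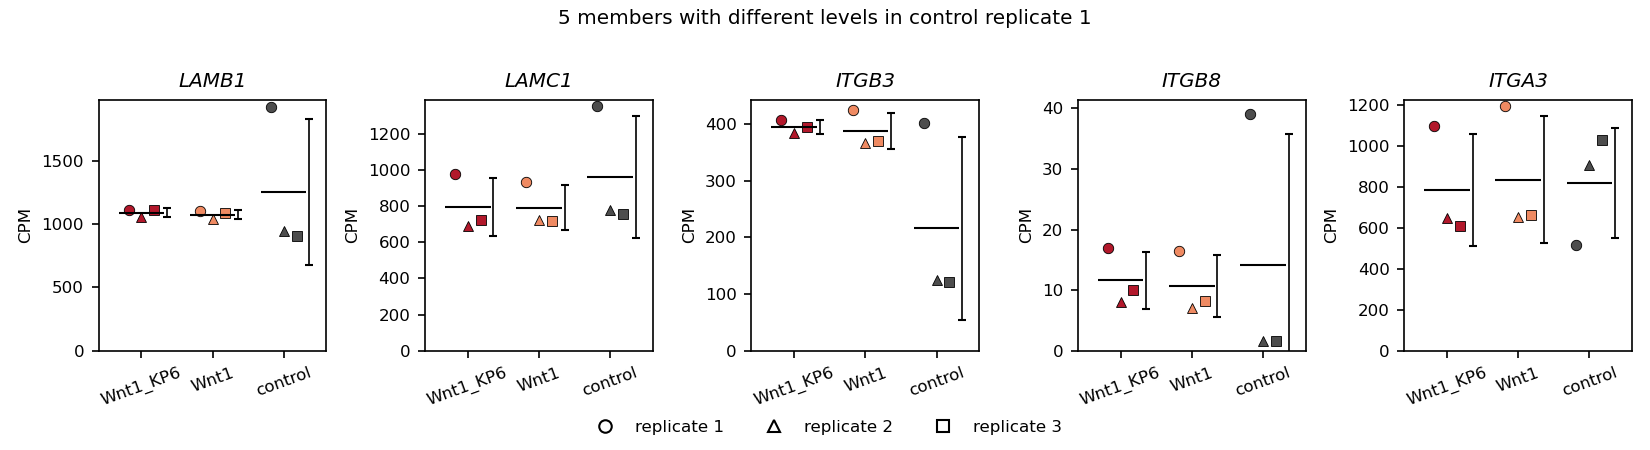
CPM of LAMB1, LAMC1, ITGB3, ITGB8 and ITGA3, chosen after their values were seen, in Wnt1_KP6, Wnt1 and control libraries, with a line at the mean of 3 and a bar of ± SD (cut at 0 for ITGB8 in control). Control replicate 1 (circle) lies far from control replicates 2 and 3, as for ITGB3 at 402 CPM against 124 and 122 CPM.

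With replicates 2 and 3 alone, many more genes were called, members included. In Wnt1_KP6 against control 17 of 27 members were called (63.0%, against 40.6% of all genes). The 7 higher members (25.9%, against 21.1%) were LAMA2, LAMA3, LAMA5, LAMB1, LAMB3, ITGB3 and ITGB8, and the 10 lower ones (37.0%, against 19.5%) included LAMC3, ITGA3, ITGA4, ITGA5, ITGB1, ITGB2, ITGB4, ITGB5 and ITGB6. In Wnt1 against control 18 of 27 were called (66.7%, against 31.6% of all genes), with 6 higher (22.2%, against 16.3%) and 12 lower (44.4%, against 15.3%). ITGA1 and ITGAV were lower there and LAMA2 was not called. In Wnt1_KP6 against Wnt1 4 of 27 were called (14.8%, against 8.62% of all genes), and the 4, among them ITGAV, ITGB1 and LAMB3, were higher in Wnt1_KP6 (6.06% of all genes higher, 2.56% lower). Each of these fits rests on 2 libraries a group.

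The log2 ratio at replicate 1 had the opposite sign to both other replicates for 11 members in Wnt1_KP6 against control (39.3%, against 40.0% of all genes). For Wnt1 against control it was 13 members (46.4%, against 39.3%), and for Wnt1_KP6 against Wnt1 12 members (42.9%, against 36.6%). The members' shares were thus near those of all genes.

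The other 11 members were too low to test. ITGAM, ITGAL, ITGAD, ITGB7, ITGA8, ITGA9, ITGA10, ITGA11, LAMA4 and LAMB4 had 0.536 CPM or less in every library, and ITGA8, a receptor of the developing kidney, had 0 counts in all 9. ITGBL1, an integrin-like gene with no membrane anchor, reached 1.02 CPM in control replicate 1 and 0.179 CPM or less in the other libraries. Of its exon bases 70.5% overlap a gene on the opposite strand, and the kit is not stated to keep strand.

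Genes that work with the members were not called by the main test. edgeR called 0 genes of 5 lists in any comparison: 34 tested adhesion adaptors, 4 hemidesmosome partners, 5 other laminin receptors, 11 basement membrane partners and 13 integrin ligands. At an unadjusted p under 0.05 there were 13 of these 67 genes in Wnt1_KP6 against control (19.4%, against 15.8% of all genes), 5 in Wnt1_KP6 against Wnt1 (7.46%, against 2.76%) and 11 in Wnt1 against control (16.4%, against 11.2%). DESeq2 called 4 in Wnt1_KP6 against control, namely ICAM1, THBS1, FN1 and SPARC (5.97%, near the 5.13% of all genes). It called THBS1 in Wnt1_KP6 against Wnt1 (1.49%, against 0.144%) and SPARC, FN1 and SRC in Wnt1 against control (4.48%, against 2.32%). The replicate block called 1 gene in Wnt1_KP6 against control (1.49%, against 1.13% of all genes), 0 in Wnt1_KP6 against Wnt1 (0.0% of all genes) and 3 in Wnt1 against control (4.48%, against 0.722%). Median log2 fold changes in Wnt1_KP6 over control were -0.01 for adaptors, -0.20 for hemidesmosome partners and -0.05 for other laminin receptors. They were -0.11 for basement membrane partners and 0.55 for ligands, against -0.01 over all genes. The lists were chosen with earlier results of these data known, so the medians describe the lists and are no independent test.

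The gene with the smallest p in each list is given for each comparison. Among adaptors it was VCL (vinculin, which ties integrins to actin) in both comparisons of Wnt1_KP6 cells, with log2 fold changes of 0.57 ± 0.19 over control (edgeR adjusted p = 0.191) and 0.59 ± 0.19 over Wnt1 (adjusted p = 1). For Wnt1 over control it was the kinase SRC (0.53 ± 0.14, edgeR adjusted p = 0.213, replicate block adjusted p = 0.0361). CD151, a tetraspanin bound to laminin receptors, had -0.24 ± 0.14 for Wnt1_KP6 over control (adjusted p = 0.469) and -0.28 ± 0.14 for Wnt1 over control (adjusted p = 0.511). SGCB, a sarcoglycan of the dystroglycan complex, had -0.29 ± 0.12 (adjusted p = 0.283) and -0.37 ± 0.12 (adjusted p = 0.297) in the same comparisons. For Wnt1_KP6 over Wnt1 the hemidesmosome linker PLEC had 0.28 ± 0.34, SGCB 0.08 ± 0.12 and the collagen IV gene COL4A1 0.10 ± 0.18 (adjusted p = 1 for each). For Wnt1 over control the block also called COL4A1 (-0.50, adjusted p = 0.0325).

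Among ligands FN1 (fibronectin) averaged 7835 ± 1182 CPM in Wnt1_KP6 cells, 7865 ± 935 CPM in Wnt1 cells and 5356 ± 586 CPM in control cells (SD, n = 3 each). Its log2 fold change over control was 0.55 ± 0.15 in both plasmid groups (edgeR adjusted p = 0.146 for Wnt1_KP6 and 0.237 for Wnt1), and the replicate block called both (adjusted p = 0.0167 and 0.0166). ICAM1, the ligand of β2 integrins, averaged 613 ± 252 CPM in Wnt1_KP6 cells, 312 ± 5.73 CPM in Wnt1 cells and 253 ± 19.7 CPM in control cells. Its log2 fold change for Wnt1_KP6 over control was 1.28 ± 0.28 (edgeR adjusted p = 0.0882). THBS1 (thrombospondin 1, a matrix ligand of β1 and αVβ3) averaged 236 ± 199 CPM in Wnt1_KP6 cells, 7.05 ± 1.28 CPM in Wnt1 cells and 11.1 ± 2.46 CPM in control cells. Its SD was near its mean in Wnt1_KP6, and the Wnt1_KP6 libraries overlapped those of both other groups. Its log2 fold changes had the largest size in the lists, 4.42 ± 1.11 for Wnt1_KP6 over control (edgeR adjusted p = 0.128, DESeq2 adjusted p = 0.00189) and 5.07 ± 1.16 for Wnt1_KP6 over Wnt1 (edgeR adjusted p = 1, DESeq2 adjusted p = 0.00440). SPARC, which binds basement membrane collagen, averaged 156 ± 9.81 CPM in Wnt1_KP6 cells, 147 ± 5.81 CPM in Wnt1 cells and 266 ± 98.2 CPM in control cells. Both Wnt1_KP6 and Wnt1 libraries overlapped control for SPARC. Its log2 fold changes over control were -0.77 ± 0.24 and -0.86 ± 0.24 (edgeR adjusted p = 0.179 and 0.247).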

How the data were processed

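Per the file headers, the deposited table gives 2 values per gene and library, an expected count (an estimate, whole in 87.6% of cases) and an FPKM value scaled by the authors to length and library size. Per the submitters' processing notes, fastp 0.18.0, Bowtie2 2.2.8, HISAT2, StringTie 1.3.1, RSEM and build hg38 were used, in roles not given in the sources used here. Reads that overlapping genes share are split by estimation.

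Here the counts were rounded and filtered with filterByExpr (minimum count 10, minimum total 15). edgeR 4.0.16 (R 4.3.3, TMM, robust quasi-likelihood test, two-sided) was fitted to the 9 libraries with 3 group means. P-values were Benjamini-Hochberg adjusted over 13153 genes, and called means adjusted p under 0.05. CPM is the rounded count over the TMM-scaled library total. Alternatives were RLE size factors, DESeq2 1.42.0, no filter, a replicate block, replicates 2 and 3 alone, limma 3.58.1 on log2(FPKM + 1), and each library left out. The code of the fits was checked on simulated counts with a known change. The simulation held no replicate differences that vary by group, so it does not measure error rates in these data.

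Treatment labels gave the groups, and titles gave the replicate numbers. Libraries with the same number deviated together from their group means (correlations of 0.11 to 0.67, all over 0.1). Replicate 1 stood apart, with correlations of -0.55 to -0.22 to other numbers. Replicates 2 and 3 were not told apart. Wnt1 replicate 2 gave 0.41 with Wnt1_KP6 replicate 2 and 0.4 with replicate 3. Control replicate 3 gave 0.25 with Wnt1_KP6 replicate 2 and 0.11 with replicate 3. As the labels state no pairing, the main fit has no block. The block fit assumes a pairing by number. No replicate pair agreed within sampling noise. The labels do not state separate cultures, so p-values measure spread that may be technical. Coordinates are GENCODE 29 on hg38, 1-based, and 20171 of 20323 IDs matched. Members and lists were chosen with earlier results of these data known. By rule, 12 members take full statistics, 1 of which is not reported here: those called, then those with the smallest unadjusted p in any comparison. In other lists the gene with the smallest p in each comparison is named. Statistics of LAMA3 and ITGB8 and values of ICAM1, FN1 and THBS1 beyond that rule were added after their values were seen.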

Additional observations from a re-analysis of the deposited data

How the results depend on the processing

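Of 28 members, DESeq2 called 2 in Wnt1_KP6 against control, 0 in Wnt1_KP6 against Wnt1 and 2 in Wnt1 against control, the replicate block called 2, 0 and 1, and replicates 2 and 3 alone called 17, 4 and 18, where edgeR on all libraries called 1, 0 and 0. Over all genes these fits called 675, 19 and 305 (DESeq2), 149, 0 and 95 (block) and 5293, 1124 and 4115 (replicates 2 and 3), where edgeR on all libraries called 30, 0 and 16. limma on log2(FPKM + 1) called 17 genes in Wnt1_KP6 against control. RLE size factors and no filter called 30 and 40 genes there.

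With each library left out in turn, 0 to 7 members and 0 to 1198 genes were called in Wnt1_KP6 against control, 0 to 0 members and 0 to 214 genes in Wnt1_KP6 against Wnt1, and 0 to 6 members and 0 to 879 genes in Wnt1 against control. The highest member counts came without control replicate 1. The LAMB3 call in Wnt1_KP6 against control was lost without control replicate 2 (adjusted p = 0.227) or 3 (0.113), Wnt1 replicate 2 (0.0580) or 3 (0.0829), or Wnt1_KP6 replicate 2 (0.175) or 3 (0.158), and kept without replicate 1 of control (0.00945), Wnt1 (0.0216) or Wnt1_KP6 (0.000921). The cause of these losses was not tested.

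Among the 12 members with full statistics, signs turned for 4, each with a main log2 fold change smaller in size than its SE. For Wnt1_KP6 against Wnt1, leaving out single libraries gave ITGA4 -0.0437 to 0.050, ITGB6 -0.0934 to 0.466 and ITGB3 -0.0109 to 0.0975, and limma gave ITGB3 -0.0151. For Wnt1 against control, ITGA2B ran over -0.594 to 0.103. Signs also turned for members outside these 12. With replicates 2 and 3 alone, Wnt1 against control went from -0.40 to 2.32 for ITGB8 and from -0.23 to 0.20 for LAMB1. It went from 0.03 to -0.56 for ITGA3 and from 0.06 to -0.35 for ITGA5. The block changed no other call among the 12 members with full statistics. DESeq2 gave no adjusted p for ITGB8 and ITGA2B in any comparison, nor for ITGAX in those of Wnt1_KP6. Depth limits the 11 untested members and ITGA2B.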
